A study of Mus musculus with 16 samples.

Results

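The genes that load transmitters into vesicles or make and retrieve monoamines were followed through the muscle and myenteric plexus of the mouse colon. They are 10 in number, the vesicular glutamate transporters Slc17a6, Slc17a7 and Slc17a8, the vesicular GABA transporter Slc32a1, the vesicular monoamine transporter Slc18a2, the monoamine enzymes Th, Dbh, Ddc and Tph2, and the serotonin reuptake transporter Slc6a4. They were chosen by name for what they encode, with earlier results of these data known. They make up 10 of the 56748 genes in the deposited table. RNA came from the longitudinal muscle with its attached myenteric plexus, microdissected from the colon of male and female mice aged 2 to 4 weeks on a mixed C57BL6/J-129Sv background. HSCR mice were Ednrb -/-, homozygous for the disrupted Ednrb tm1Ywa allele, and WT mice were their Ednrb +/+ littermates. Each genotype gave 4 libraries of the proximal and 4 of the distal colon, 16 in all, with no drug or other agent in any group. The allele disrupts the endothelin B receptor in the whole animal and leaves the distal colon without ganglia, and the proximal ganglionic segment of HSCR mice was recognised by its distention. The titles of the 8 distal libraries name the distal colon while their tissue entries name the proximal colon, and they were taken as distal. No label says whether each library is a separate mouse, or whether both segments came from the same mouse, so p-values measure the spread between these libraries only.

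Enteric neurons are named by the transmitters they release. Acetylcholine and nitric oxide carry most motor signals, glutamate and GABA are made by smaller groups, and serotonin is made by a small group of interneurons and, in far larger amount, by enterochromaffin cells of the epithelium. Except for gases such as nitric oxide, transmitters are stored in vesicles by transporters for 1 transmitter or a small class of them, so a transporter gene often serves as a marker of a neuron type. Noradrenaline is made from tyrosine by tyrosine hydroxylase (Th), aromatic amino acid decarboxylase (Ddc) and dopamine β-hydroxylase (Dbh) in turn, and serotonin by a tryptophan hydroxylase (Tph2 in neurons, Tph1 in epithelium) followed by Ddc. In the gut, noradrenaline comes mainly from sympathetic axons whose cell bodies, and most of whose RNA, lie outside the gut wall.

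Th and Dbh encode the first and the last enzyme of that path, yet their levels were far apart here, so the 250 bases before the start of each are shown. The sequences are those of RefSeq in build GRCm38.p6, where all 10 genes had a promoter entry. They read 5′ to 3′ on the strand of the gene, and capitals mark a match to a searched motif.
Th, chr7:142899996-142900245, minus strand, capitals the cAMP response element TGACGTCA: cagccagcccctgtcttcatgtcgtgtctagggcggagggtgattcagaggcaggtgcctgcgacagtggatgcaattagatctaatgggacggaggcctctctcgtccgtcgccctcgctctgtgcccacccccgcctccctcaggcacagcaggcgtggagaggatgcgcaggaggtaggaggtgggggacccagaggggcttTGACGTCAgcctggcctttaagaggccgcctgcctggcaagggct
Dbh, chr2:27165257-27165506, plus strand, capitals the homeodomain core ATTA on the strand shown: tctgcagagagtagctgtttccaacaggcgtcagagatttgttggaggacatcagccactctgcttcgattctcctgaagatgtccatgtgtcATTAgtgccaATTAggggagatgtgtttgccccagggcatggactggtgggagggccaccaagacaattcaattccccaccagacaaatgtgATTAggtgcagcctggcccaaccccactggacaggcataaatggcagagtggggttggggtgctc
Both motifs were searched on both strands. TGACGTCA reads the same on each, and its match in Th begins at base -45. It is found in 1.55% of 32851 promoter windows of this length, and in none of the windows of the other 9 genes. ATTA or its reverse TAAT is found in 54.9% of windows, and Dbh holds 3 copies, at bases -157, -147 and -65, as at least 3 copies do in 17.3% of windows. A window of Slc17a6, of Slc17a8 and of Tph2 holds 4 copies, and a window of Ddc holds 3. Th holds 2 copies, Slc18a2 and Slc17a7 hold 1, and Slc32a1 and Slc6a4 hold none. These are matches of letters in a window.

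Between 21384372 and 45831881 reads per library were counted on genes, a depth at which 3 counts, the limit that a count of 0 allows, equal 0.0551 to 0.226 CPM. Levels are given as CPM, counts set against the total of a library, with library totals scaled by TMM factors, and this limit covers counting error only. Mitochondrial genes took 7.31% to 49.8% of the counts in WT proximal and 5.56% to 20.1% in HSCR proximal libraries. In the distal colon they took 4.32% to 23.7% in WT and 5.93% to 11.3% in HSCR libraries. WT proximal 1 and 4 had the highest shares, 49.8% and 34.6%, and the lowest TMM factors, 0.621 and 0.731. Ednrb, the disrupted gene, did not separate the genotypes: HSCR proximal libraries held 7.84 to 36.2 CPM against 33.9 to 67.7 in WT, and HSCR distal libraries 5.54 to 97.0 CPM against 12.2 to 40.2. Hoxd13, a gene of the distal colon singled out after its values were seen, held 0.904 to 23.9 CPM in WT proximal and 112 to 201 CPM in WT distal libraries. The library labelled HSCR proximal 1 held 125 CPM of Hoxd13 and the library labelled HSCR distal 1 held 0.629 CPM, so both go against their segment labels, and genotype changes of the 7 genes tested are given with and without them. HSCR distal 4, at 14.1 CPM, also lay within the WT proximal range of Hoxd13. HSCR proximal 2, 3 and 4 held 2.48, 0.643 and 1.18 CPM of Hoxd13, against 0.904, 15.3, 19.7 and 23.9 CPM in WT proximal 1 to 4. Whether the proximal segments of both genotypes match in position along the colon was not tested. Library names split every group at replicate 2, and values within replicates 1 and 2 and within replicates 3 and 4, called series here, are given where they differ. In replicates 1 and 2 the libraries of the same replicate also share a number in their names across all groups, and what it stands for is not given. Among replicates 3 and 4 the names start with CM in WT proximal colon, with LC in all distal libraries and with either in HSCR proximal colon, so in WT this prefix and the segment cannot be told apart. All 10 enteric neuron markers had counts in each WT group, and their summed level was 604 to 3068 CPM in WT proximal, 65.3 to 1126 in HSCR proximal, 89.1 to 1779 in WT distal and 16.9 to 876 in HSCR distal libraries, where Chat was at 0 in all 4. The muscle layer was present throughout, with 3393 to 66744 CPM summed over 4 smooth muscle markers.

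With edgeR's quasi-likelihood test over the 16 libraries, 7 of the 10 genes passed the filter on low counts, and none was called between HSCR and WT in either segment at an adjusted p under 0.05 with a log2 fold change beyond 1. The same was true of all 18619 genes tested, of which 0.0% were called in either segment, also without both doubtful libraries. At an unadjusted p under 0.05, 1 of the 7 was lower (Slc17a6; 3.01% of all genes) and 1 higher (Ddc; 4.05%) in HSCR proximal colon, while in the distal colon 2 were lower (Slc17a6 and Dbh; 2.31%) and 0 higher (1.49%). DESeq2 called Slc17a6 lower in each segment, among 61 and 33 genes. Of all genes it called 0.124% higher and 0.204% lower in the proximal colon, and 0.0215% higher and 0.156% lower in the distal colon. In simulated data as variable as the real libraries, DESeq2 made 78 false calls between HSCR and WT distal colon. The quasi-likelihood test made 1 there, with 18035 genes run, so a call by DESeq2 alone is weak evidence in the distal colon. The proximal comparison was not simulated, and the simulated libraries held no difference between series. The edgeR likelihood ratio test called 0 and 6 genes and limma-voom 0 and 0, none of them among the 10, and the likelihood ratio test with 4 RUVr factors called 1496 and 553, among them 3 and 2 of the 10. In the latter test 5.33% of all genes were called higher and 2.7% lower in the proximal colon, against 0.677% and 2.29% in the distal colon.

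**Figure D1:**
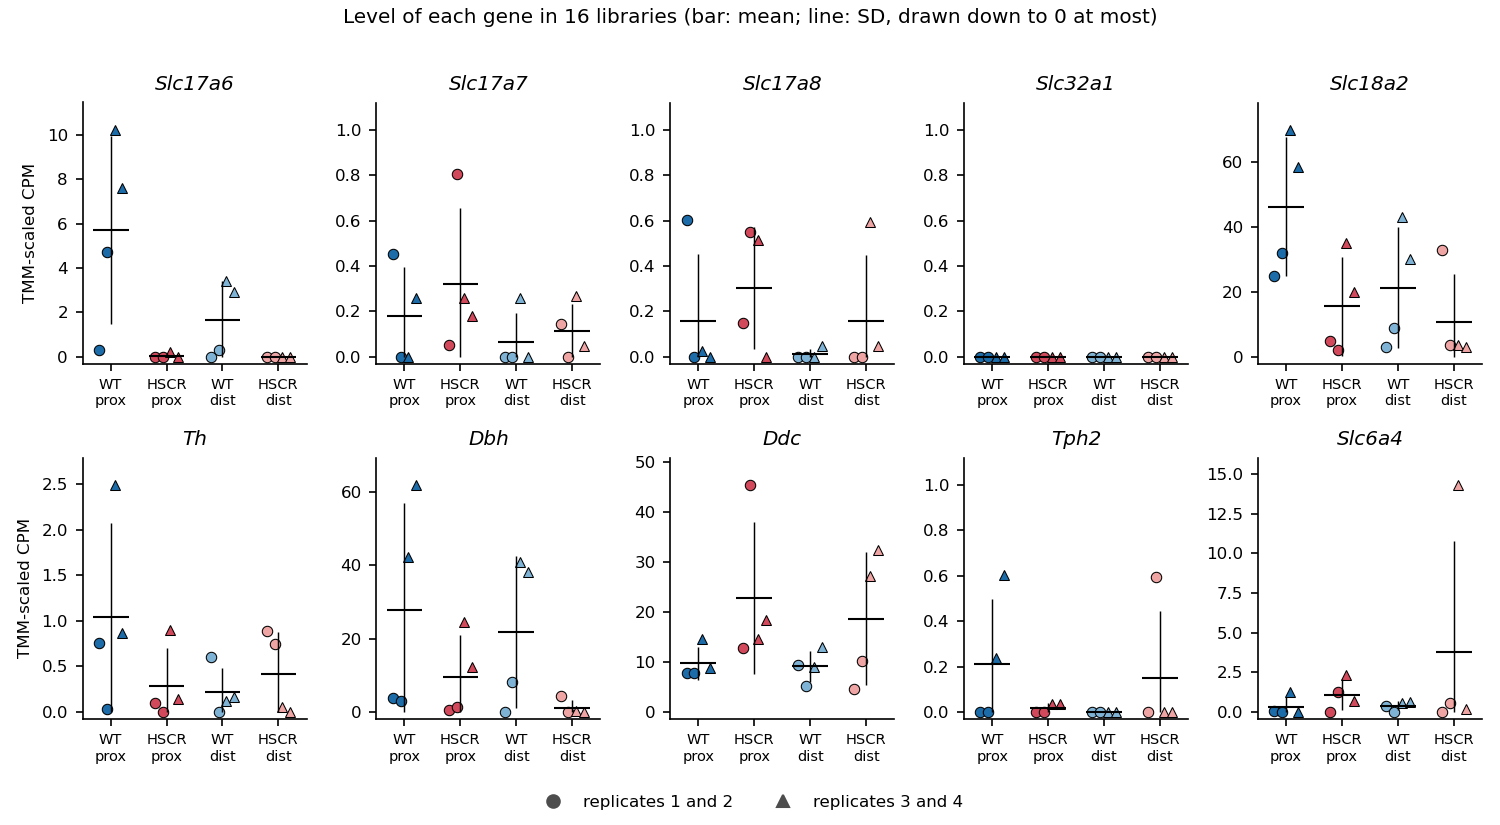
TMM-scaled CPM of the 10 genes in 16 libraries, 1 panel a gene with its own linear axis. Circles are replicates 1 and 2, triangles replicates 3 and 4, the bar is the mean and the line the SD of 4 libraries. Slc17a6 lies at or near 0 in all 8 HSCR libraries, Slc32a1 is at 0 everywhere, and Ddc is the gene whose mean is above WT in both HSCR segments with counts in every library.

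Slc17a6 encodes VGLUT2, which fills vesicles with glutamate and marks glutamatergic enteric neurons (ENSMUSG00000030500, chr7:51271754-51320867, plus strand, mm39). WT proximal libraries 1 to 4 held 0.301, 4.75, 10.2 and 7.60 CPM. HSCR proximal libraries held 0, 0, 0.220 and 0 CPM, the single value above 0 standing for 12 counts. It was the only one of the 10 genes whose proximal groups did not overlap, a pattern that 2.6% of all genes showed in that direction and 2.22% in the other. WT averaged 5.72 ± 4.25 CPM and HSCR 0.0551 ± 0.110 CPM (SD, n = 4 libraries each), with 3 of the 4 HSCR libraries at 0, and the fitted log2 fold change was -6.47 (SE 1.95, adjusted p = 0.705 by edgeR's quasi-likelihood test). In the distal colon WT libraries held 0, 0.288, 3.40 and 2.91 CPM, and all 4 HSCR libraries were at 0. WT distal 1 was at 0 as well, so these groups overlapped, as they did for all 10 genes in the distal colon, where 0.822% of all genes were higher and 1.06% lower without overlap. Set against the limit of 3 counts per library, the WT distal mean was at least 19.0-fold higher than HSCR. The fitted log2 fold change was -8.85 (SE 2.37, adjusted p = 1.00 by the same edgeR test). With HSCR at 0 throughout, this fold change and its SE depend on the prior count. DESeq2 gave log2 fold changes of -6.64 (adjusted p = 0.0476) and -8.31 (adjusted p = 0.0249), and with 4 RUVr factors the adjusted p-values were 0.000789 and 0.00168. Over all alternatives the adjusted p ranged from 0.000789 to 0.953 in the proximal and from 0.00168 to 1.0 in the distal colon. Without the 2 HSCR libraries of doubtful segment the changes were -6.05 and -8.85. The gene passed the filter through its WT libraries, and 1059 counts over 16 libraries carry all of these values.

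Slc17a6 was also low in the HSCR libraries that held many neuron transcripts. HSCR proximal 3 and 4 held 1126 and 1089 CPM of the 10 neuron markers and HSCR distal 1 held 876, with Slc17a6 at 0.220, 0 and 0 CPM. A count of 0 allows up to 0.107 CPM in HSCR proximal 4 and up to 0.0858 in HSCR distal 1. WT proximal 2 and WT distal 4, with similar neuron sums of 1207 and 1324 CPM, held 4.75 and 2.91 CPM, whereas WT proximal 1, at 604 CPM of neuron markers, held 0.301. Per 1000 CPM of neuron markers, a scale chosen after the values were seen, Slc17a6 stood at 0.499 to 3.94 in WT proximal and 0 to 0.196 in HSCR proximal libraries. The corresponding distal ranges were 0 to 2.20 in WT and 0 to 0 in HSCR. On this scale Slc18a3, which loads acetylcholine, stood at 7.43 and 4.60 in HSCR proximal 3 and 4 and 11.5 in HSCR distal 1. In WT proximal 2, WT distal 4 and WT proximal 1 it stood at 14.5, 30.6 and 6.73. Chat was at 0 in HSCR distal 1, so similar neuron sums need not hold the same neuron types. In bulk RNA, fewer cells of a type and less RNA per cell cannot be told apart.

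Slc17a7 (VGLUT1; ENSMUSG00000070570, chr7:44813373-44825566, plus strand) and Slc17a8 (VGLUT3; ENSMUSG00000019935, chr10:89409882-89457115, minus strand), the other glutamate transporters, were near the limit of detection. Slc17a7 had 85 counts over all libraries, with counts in 10 of 16, a highest level of 0.803 CPM in HSCR proximal 2, and did not pass the filter; without the filter its log2 fold changes were 0.88 (proximal) and 0.74 (distal), with adjusted p-values of 0.994 and 1.00 by edgeR. Slc17a8 had 84 counts, with counts in 8 libraries and a highest level of 0.603 CPM in WT proximal 1. WT and HSCR libraries of Slc17a8 overlapped in both segments, with log2 fold changes of 1.06 (SE 1.85) and 3.37 (SE 2.02) and adjusted p-values of 0.916 and 1.00 by edgeR. They were 1.32 and 3.77 without the 2 HSCR libraries of doubtful segment. Single libraries moved them further, from 0.60 (without WT proximal 4) to 4.52 (without WT proximal 1) and from 0.35 (without HSCR distal 3) to 5.48 (without WT distal 4). The likelihood ratio test with 4 RUVr factors called Slc17a8 higher in HSCR proximal colon (log2 fold change 4.74, adjusted p = 0.0325), while 2 of 4 WT and 3 of 4 HSCR libraries held any count. Neither gene showed the level that Slc17a6 reached in WT.

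Slc32a1 encodes VGAT, which loads GABA and glycine (ENSMUSG00000037771, chr2:158452687-158457668, plus strand). It had no count in any of the 16 libraries, which allows at most 0.0551 to 0.226 CPM depending on the library. Gad1, which makes GABA, had counts in 3 of 4 WT proximal libraries, at 0.527, 0, 1.57 and 1.08 CPM, and in none of the HSCR proximal libraries. In the distal colon Gad1 held 0, 0, 1.50 and 2.28 CPM in WT and 0, 0, 0.108 and 0 CPM in HSCR libraries. Unadjusted p-values were 0.0106 and 0.0436, and adjusted p-values 0.705 and 1.00, by edgeR's test over 16 libraries. Gad1 was thus counted at a trace level in WT libraries that held no count of Slc32a1.

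**Figure D2:**
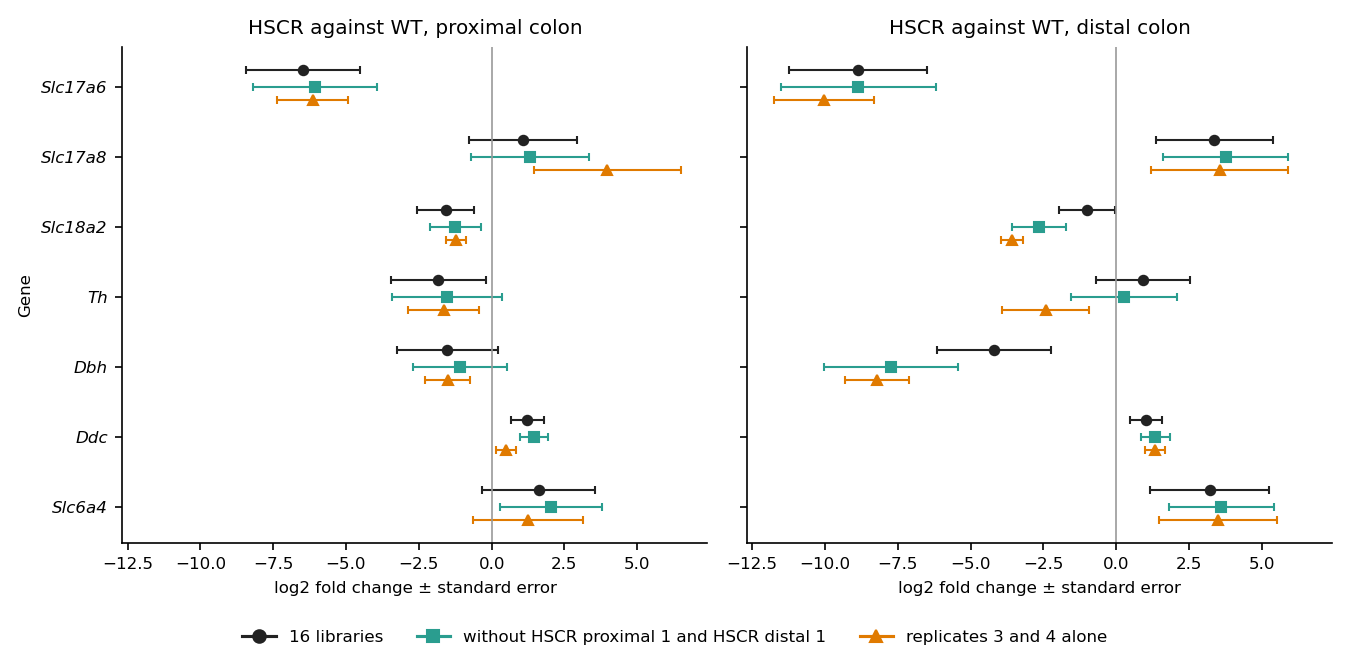
Log2 fold change of HSCR against WT with its SE, derived from the test statistic, for the 7 genes tested, in the proximal (left) and distal colon (right). Black circles are the fit on 16 libraries, green squares leave out HSCR proximal 1 and HSCR distal 1, and orange triangles are replicates 3 and 4 alone. Slc17a6 lies between -10.03 and -6.05 in the fits shown, and the distal values of Slc18a2 and Dbh move to -3.57 and -8.20 in replicates 3 and 4.

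Slc18a2 encodes VMAT2, which loads serotonin, dopamine, noradrenaline and histamine into vesicles (ENSMUSG00000025094, chr19:59249328-59284444, plus strand). It was the most strongly counted of the 10 genes, with counts in all 16 libraries and 13563 in total. WT proximal libraries 1 to 4 held 24.8, 31.8, 69.8 and 58.3 CPM and HSCR proximal libraries 4.92, 2.19, 34.9 and 19.9 CPM. Only HSCR proximal 3 reached into the WT range. The means were 46.2 ± 21.4 and 15.5 ± 15.1 CPM (SD, n = 4 each), a log2 fold change of -1.58 (SE 0.97, adjusted p = 0.752 by edgeR's quasi-likelihood test). The change was -2.92 within replicates 1 and 2 and -1.23 within replicates 3 and 4, with adjusted p-values of 0.882 and 0.283, and it was -1.24 (adjusted p = 0.787) without the 2 libraries of doubtful segment. With 4 RUVr factors it was -1.90 and called (adjusted p = 0.00402).

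In the distal colon Slc18a2 turned on 1 library. WT distal libraries held 3.10, 8.81, 42.9 and 30.1 CPM and HSCR distal libraries 32.8, 3.53, 3.61 and 3.06 CPM. The 32.8 CPM belong to HSCR distal 1, whose Hoxd13 is that of proximal colon and whose neuron markers sum to 876 CPM, and the other 3 HSCR libraries lay close to WT distal 1. Over all libraries the log2 fold change was -0.98 (SE 0.96, adjusted p = 1.00). Without both doubtful HSCR libraries it was -2.65 (adjusted p = 0.586). Within replicates 3 and 4 it was -3.57 and called (adjusted p = 0.00252), and within replicates 1 and 2 it was 1.60 with the opposite sign (adjusted p = 1.00), all by edgeR's quasi-likelihood test. In replicates 3 and 4 alone 4.32% of 19279 genes were called lower in HSCR distal colon, with 0.0467% called higher, so Slc18a2 was 1 of 833 genes called lower there.

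Dbh converts dopamine to noradrenaline inside the vesicle (ENSMUSG00000000889, chr2:27055245-27073212, plus strand). WT proximal libraries held 3.84, 2.95, 42.3 and 62.0 CPM and HSCR proximal libraries 0.450, 1.24, 24.6 and 12.2 CPM. Within each library series both HSCR values lay below both WT values, but the series differed from each other by more than the genotypes did. The log2 fold change was -1.52 (SE 1.74, adjusted p = 0.860 by edgeR), and it was -1.94 when fitted on replicates 1 and 2 and -1.51 when fitted on replicates 3 and 4. Without the 2 doubtful HSCR libraries it was -1.10, and leaving out single libraries moved it from -2.55 (without HSCR proximal 3) to -0.80 (without WT proximal 4). WT distal libraries held 0, 8.24, 40.9 and 38.2 CPM, and HSCR distal libraries 4.49, 0, 0.296 and 0 CPM. The distal means were 21.8 ± 20.8 and 1.20 ± 2.20 CPM (SD, n = 4 each), a ratio of 18.3. The log2 fold change of -4.19 (SE 1.95) had an unadjusted p of 0.0478 and an adjusted p of 1.00 by edgeR, and without the 2 doubtful HSCR libraries it was -7.72 (adjusted p = 0.479). Replicates 3 and 4 alone gave -8.20 (adjusted p = 0.00663) and replicates 1 and 2 alone -0.87 (adjusted p = 1.00).

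Th, the rate-limiting enzyme of catecholamine synthesis (ENSMUSG00000000214, chr7:142446489-142484865, minus strand), was measured at a small part of the Dbh level. WT proximal libraries held 0.753, 0.0368, 2.49 and 0.864 CPM, and HSCR proximal libraries 0.0999, 0, 0.900 and 0.143 CPM. WT distal libraries held 0.601, 0, 0.119 and 0.164 CPM and HSCR distal libraries 0.886, 0.744, 0.0539 and 0 CPM. The groups overlapped in both segments, with log2 fold changes of -1.83 (SE 1.63) and 0.93 (SE 1.61) and adjusted p-values of 0.825 and 1.00 by edgeR. Without the 2 doubtful HSCR libraries they were -1.53 and 0.27. The proximal value ran from -3.59 without HSCR proximal 3 to -0.91 without WT proximal 3, and the distal value from 0.27 without HSCR distal 1 to 2.09 without WT distal 1. In the distal colon it changed sign with 4 RUVr factors (-0.28) and in replicates 3 and 4 alone (-2.42).

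Per gene length, in deposited FPKM, Dbh was above Th in 13 of 16 libraries and below it in WT distal 1 and HSCR distal 2. HSCR distal 4 had neither. The ratio of Dbh to Th was 3.95 to 303 in the 11 libraries with counts of both, with a median of 24.0. WT distal 3 and 4 showed the widest gap, 15.0 and 13.6 FPKM of Dbh beside 0.0496 and 0.0667 of Th. Of other genes of noradrenergic neurons, Slc6a2, the noradrenaline reuptake transporter, reached at most 0.864 CPM. Npy, a cotransmitter of sympathetic neurons, reached at most 8.52 CPM. The list of 7 sympathetic markers, which holds Th, Dbh and Slc18a2 itself, summed to 137 to 335 CPM in WT proximal, 17.0 to 153 in HSCR proximal, 52.8 to 253 in WT distal and 66.6 to 155 in HSCR distal libraries, and Hand2 was over 50% of it in each library, a gene that enteric neurons also express.

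**Figure D3:**
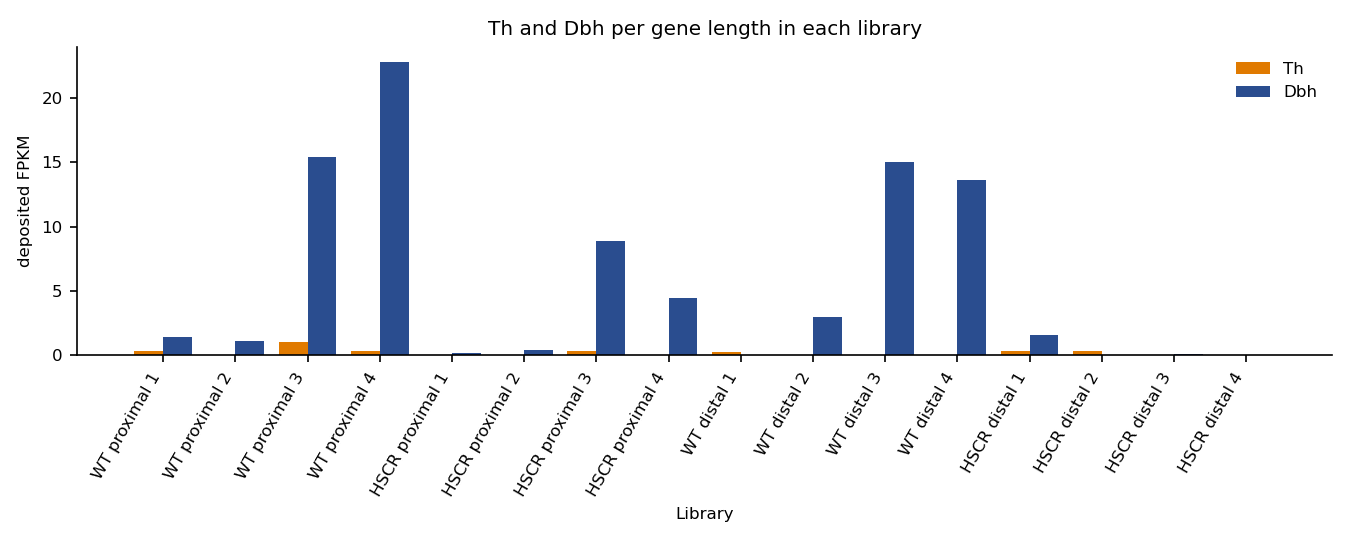
Deposited FPKM (counts scaled by gene length and a library size) of Th (orange) and Dbh (blue) in each of the 16 libraries, as bars from 0. Dbh is the taller bar in 13 libraries, and its tallest bars, 13.6 to 22.8 FPKM, are WT replicates 3 and 4 of both segments, while Th stays at or below 1.04 FPKM.

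Slc18a2, Dbh and Slc17a6 were set beside the neuron markers of the same libraries. Over the 16 libraries the correlation of log2 CPM with the log2 of the summed CPM of the neuron markers was 0.946 for Slc18a2, 0.880 for Dbh and 0.780 for Slc17a6 (Pearson's r, a description over libraries that share series, segment and depth). Slc18a2 with Dbh gave 0.852. Per 1000 CPM of neuron markers Slc18a2 stood at 22.4 to 41.0 in WT proximal and 18.2 to 75.4 in HSCR proximal libraries, and at 22.7 to 34.8 in WT distal and 37.4 to 181 in HSCR distal libraries. The highest ratios, 120 and 181, belong to HSCR distal 3 and 4, where the neuron sums were 30.1 and 16.9 CPM and Slc18a2 was 3.61 and 3.06 CPM. Dbh on this scale was 2.44 to 23.7 and 6.89 to 21.9 in WT and HSCR proximal libraries, with medians of 10.1 and 11.6. In the distal colon it was 0 to 28.8 in WT, with a median of 23.7, and 0 to 9.86 in HSCR, with a median of 2.56. Measured against the neuron markers, the proximal ranges of Slc18a2 and of Dbh overlapped between genotypes while those of Slc17a6 did not. Only these genes and Slc18a3 were put on this scale, so the share of all genes without overlap on it is not known. The part that neuron content had in the lower levels was not tested. Glial markers held 257 to 753 CPM summed over 4 genes in WT proximal and 44.2 to 245 in HSCR proximal libraries. In the distal colon they held 129 to 437 CPM in WT and 24.4 to 191 in HSCR libraries. Over the 16 libraries their correlation with Slc18a2, Dbh and Slc17a6 was 0.726, 0.563 and 0.684. Within WT proximal libraries 1 to 4 the glial sums were 753, 545, 257 and 423 CPM, the reverse of the order of Slc18a2 and Slc17a6.

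**Figure D4:**
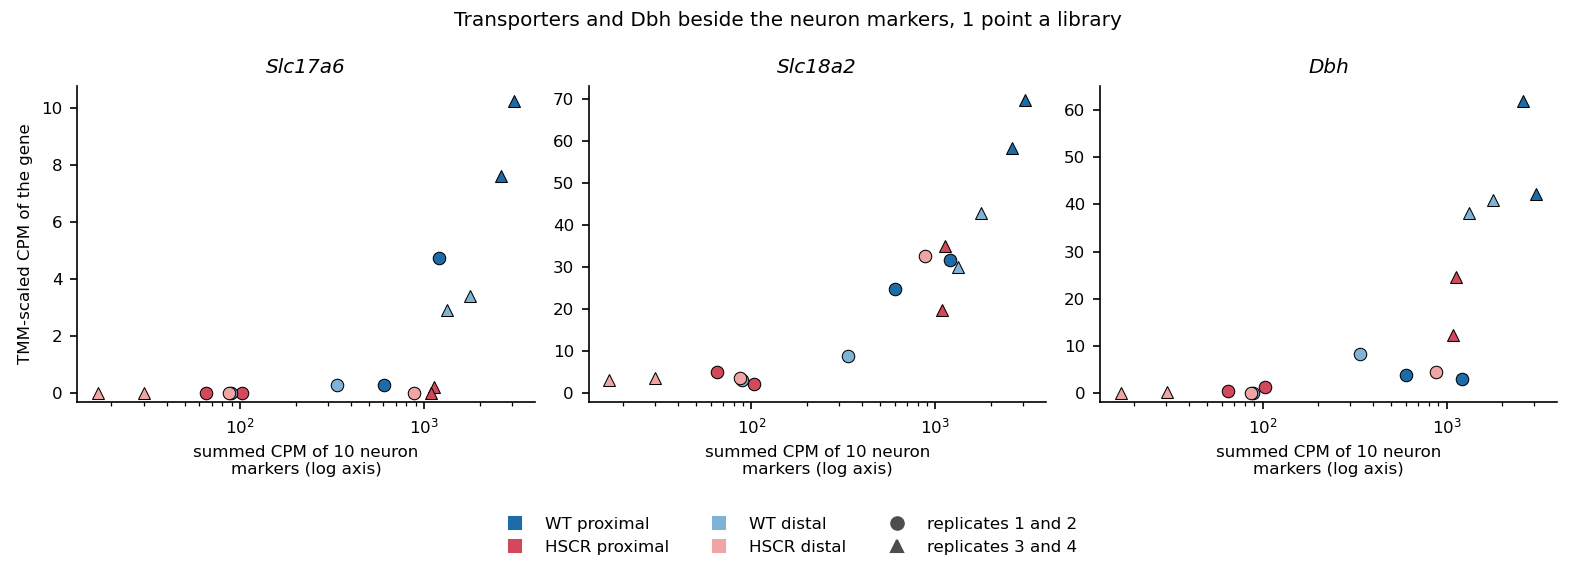
TMM-scaled CPM of Slc17a6, Slc18a2 and Dbh (linear axis) against the summed CPM of 10 enteric neuron markers (log axis), 1 point a library. Colours are groups, circles replicates 1 and 2, triangles replicates 3 and 4. Slc18a2 of both genotypes rises with the neuron sum, while the 3 HSCR libraries with 876 to 1126 CPM of neuron markers stay at 0 to 0.220 CPM of Slc17a6.

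Mast cells also use VMAT2. Their 6 markers together summed to 0 to 2.06 CPM in WT proximal, 0 to 4.10 in HSCR proximal, 0.0704 to 6.94 in WT distal and 0.461 to 25.4 in HSCR distal libraries. Fcer1a was at 0 in every library. HSCR distal 2 held the 25.4 CPM, with Mcpt4 at 11.9 CPM, and its Slc18a2 was 3.53 CPM. The median of the mast cell sum in HSCR distal libraries was 4.64 CPM, and the part of these cells in the Slc18a2 values was not tested.

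Ddc, which makes both dopamine and serotonin and is also active in epithelium, had the opposite direction (ENSMUSG00000020182, chr11:11764101-11848144, minus strand). WT proximal libraries held 7.76, 7.81, 14.5 and 8.72 CPM and HSCR proximal libraries 12.8, 45.4, 14.6 and 18.3 CPM. Only WT proximal 3 reached into the HSCR range, above HSCR proximal 1. WT averaged 9.70 ± 3.24 CPM and HSCR 22.8 ± 15.2 CPM (SD, n = 4 each), and the log2 fold change was 1.23 (SE 0.56, unadjusted p = 0.0438, adjusted p = 0.705 by edgeR). It was 1.46 without the 2 doubtful HSCR libraries (adjusted p = 0.721). Leaving out single libraries moved it between 0.65 and 1.49. Without HSCR proximal 2, the library with 45.4 CPM, it was the lowest of these. Over all alternatives the adjusted p of Ddc ranged from 0.0448 to 0.967 in the proximal colon, and none of them called it. In the distal colon WT libraries held 9.48, 5.24, 8.91 and 12.9 CPM and HSCR libraries 4.66, 10.2, 27.1 and 32.4 CPM. HSCR distal 3 and 4 lay above all WT values and HSCR distal 1 below all of them. The log2 fold change was 1.03 (SE 0.56, adjusted p = 1.00), 1.34 without the 2 doubtful HSCR libraries (adjusted p = 0.624), 0.03 in replicates 1 and 2 and 1.33 in replicates 3 and 4 (adjusted p = 0.107).

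Epithelial markers moved with Ddc in some libraries and not in others. The 6 markers summed to 14.7 to 1433 CPM in WT proximal, 119 to 10701 in HSCR proximal, 76.8 to 1824 in WT distal and 64.0 to 3516 in HSCR distal libraries. HSCR proximal 2 held both the most epithelium, 10701 CPM, and the most Ddc, and HSCR distal 3 held 3516 CPM of epithelium with 27.1 CPM of Ddc. HSCR distal 4 held the lowest epithelial sum of its group, 64.0 CPM, and the second highest Ddc of all libraries, 32.4 CPM, whereas WT proximal 1 and WT distal 1 held 1433 and 1824 CPM of epithelium with 7.76 and 9.48 CPM of Ddc. Over the 16 libraries the correlation of Ddc with the epithelial markers was 0.336, with the neuron markers -0.493 and with the glial markers -0.751. The part of each cell type in the Ddc values was not tested.

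Slc6a4, which takes serotonin back up in enterocytes and serotonergic neurons (ENSMUSG00000020838, chr11:76889429-76923166, plus strand), was below 2.4 CPM in every library but HSCR distal 3. WT proximal libraries held 0.0753, 0, 1.28 and 0 CPM and HSCR proximal libraries 0, 1.28, 2.33 and 0.716 CPM. WT distal libraries held 0.400, 0, 0.593 and 0.610 CPM and HSCR distal libraries 0, 0.595, 14.3 and 0.184 CPM. The groups overlapped in both segments. The log2 fold changes were 1.61 (SE 1.93, adjusted p = 0.865) and 3.22 (SE 2.04, adjusted p = 1.00) by edgeR. Without the 2 doubtful HSCR libraries they were 2.03 and 3.61. Without HSCR distal 3, the library with 14.3 CPM, the distal value was -0.63. The proximal value ran from 0.91 (without HSCR proximal 3) to 5.60 (without WT proximal 3).

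Tph2, the neuronal tryptophan hydroxylase (ENSMUSG00000006764, chr10:114914546-115020927, minus strand), had 43 counts over 16 libraries and did not pass the filter on low counts. WT proximal libraries held 0, 0, 0.237 and 0.605 CPM, HSCR proximal libraries 0, 0, 0.0367 and 0.0358 CPM, WT distal libraries 0 in all 4, and HSCR distal libraries 0, 0.595, 0 and 0 CPM. Only 3 libraries were above the limit of 3 counts. Without the filter, unadjusted p-values were 0.177 (HSCR against WT, proximal), 0.0360 (distal), 0.0271 (WT segments) and 0.0165 (difference between segments), and adjusted p-values were 0.644, 0.697, 0.732 and 1.00 by edgeR, with all 4 WT distal libraries at 0 and 1 HSCR distal library above 0. Tph1, its epithelial counterpart, ranged from 0 to 32.4 CPM with the highest value in HSCR proximal 2, the library richest in epithelium. Tph2 was thus near the limit of detection in every group.

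**Figure D5:**
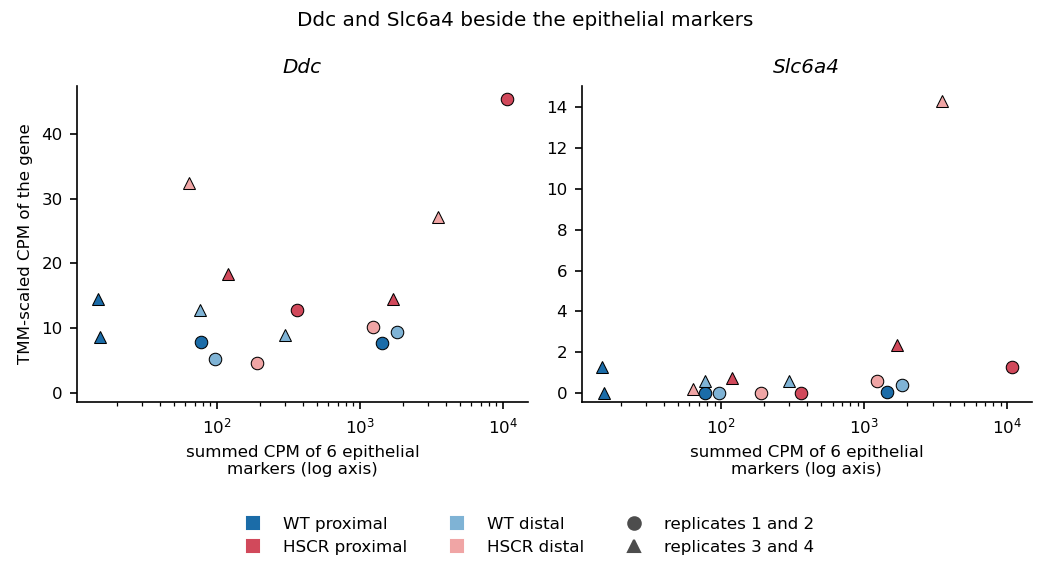
TMM-scaled CPM of Ddc and Slc6a4 (linear axis) against the summed CPM of 6 epithelial markers (log axis), 1 point a library, with colours for groups, circles for replicates 1 and 2 and triangles for replicates 3 and 4. The highest Ddc value, 45.4 CPM, lies at the highest epithelial sum, and the next, 32.4 CPM, at 64.0 CPM of epithelium. Slc6a4 stands apart in 1 library, HSCR distal 3.

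The genes were ordered by mean level per gene length in each group. These means pool both library series. In WT proximal colon Dbh led with a mean of 10.2 ± 10.8 FPKM, followed by Slc18a2 at 8.74 ± 4.02, Ddc at 2.15 ± 0.708, Slc17a6 at 1.05 ± 0.776 and Th at 0.432 ± 0.431 FPKM (SD, n = 4), and the other 5 were below 0.08 FPKM. In HSCR proximal colon Ddc led with 5.03 ± 3.47 FPKM, with Dbh at 3.49 ± 4.09 and Slc18a2 at 2.88 ± 2.81 within its spread, and Slc17a6 was at 0.00991 ± 0.0198 FPKM. WT distal colon kept the WT proximal order of the first 4, with Dbh at 7.92 ± 7.52, Slc18a2 at 3.98 ± 3.48, Ddc at 2.01 ± 0.664 and Slc17a6 at 0.298 ± 0.317 FPKM. HSCR distal colon held Ddc at 4.00 ± 2.76, Slc18a2 at 2.00 ± 2.73, Slc6a4 at 0.802 ± 1.49 and Dbh at 0.432 ± 0.795 FPKM. Dbh was above both Slc18a2 and Ddc in replicates 3 and 4 of WT proximal, HSCR proximal and WT distal colon. In WT proximal 1 and 2 it held 1.41 and 1.09 FPKM, below Slc18a2 at 4.68 and 6.05 and Ddc at 1.72 and 1.74 FPKM, so its place by mean rests on replicates 3 and 4. Ddc was above Dbh in HSCR proximal 1 and 2, at 2.76 and 10.2 FPKM against 0.160 and 0.462. Taking mean ± SD as the spread, Slc18a2 and Ddc in WT proximal and Ddc and Slc17a6 in WT distal colon were the only neighbours named here whose spreads did not overlap.

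Segments of 1 genotype were compared as well. None of the 7 tested genes was called between distal and proximal colon in WT or in HSCR mice, nor was any of the 18619 genes (0.0%) by edgeR's quasi-likelihood test. No member had an unadjusted p under 0.05 in these comparisons, where 3.03% of genes were higher and 1.8% lower in WT distal colon, and 1.36% and 1.2% in HSCR distal colon. DESeq2 called 18 genes in WT (0.0698% higher, 0.0269% lower) and 0 in HSCR mice, and the likelihood ratio test and limma-voom called 0, in each case without any of the 10. With 4 RUVr factors 3.44% of genes were called higher and 1.51% lower in WT distal colon, among them Slc18a2 (log2 fold change -1.47, adjusted p = 0.0433), and 0.274% and 0.859% in HSCR distal colon, with none of the 10. In WT mice Slc17a6 was lower distally by a ratio of means of 3.47 (log2 fold change -1.79, SE 1.56, adjusted p = 0.956 by edgeR) and Slc18a2 by 2.17 (-1.12, SE 0.96, adjusted p = 0.956). Dbh and Ddc had ratios of 1.27 and 1.06. In HSCR mice Dbh had a log2 fold change of -3.01 (SE 1.85, adjusted p = 1.00), with 8.06-fold lower means distally, and -6.94 (adjusted p = 0.627) without the 2 libraries of doubtful segment. In replicates 3 and 4 alone, where 0.083% of genes were called higher and 2.54% lower in HSCR distal colon, Slc18a2 and Dbh were called (log2 fold changes -3.12 and -7.07, adjusted p = 0.00593 and 0.0157 by edgeR). In replicates 1 and 2 alone, which hold both doubtful libraries, the same changes had the opposite sign, 2.33 and 1.39 (adjusted p = 1.00 each). The difference of the genotype change between the segments was tested too, and no member had an unadjusted p under 0.05 (0.602% of all genes were higher and 0.843% lower). Its values for Slc17a6, Dbh and Slc18a2 were -2.38 (SE 2.03), -2.66 (SE 2.46) and 0.59 (SE 1.35), with adjusted p-values of 1.00 by edgeR, so a difference between the segments was not shown for any of them.

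Other genes of the same pathways, in lists chosen by function, had no call by edgeR's quasi-likelihood test in any comparison. DESeq2 called 1 of them, lower in HSCR distal colon, and replicates 3 and 4 alone called 5 lower in HSCR than WT distal colon, Slc18a3 and Slc29a4 among them, and 1 lower in HSCR distal than proximal colon. Calls with RUVr factors were not counted for these lists. Of the 4 other vesicular transporters, 0 had an unadjusted p under 0.05 in either segment, and the median log2 fold change was 0.87 (proximal) and -0.55 (distal), where the medians of all genes were 0.09 and 0.06. Slc18a3, which loads acetylcholine, was the highest of them, at 4.07, 17.5, 111 and 83.0 CPM in WT proximal and 0.0499, 1.02, 8.37 and 5.01 CPM in HSCR proximal libraries. Its log2 fold change was -3.89 (SE 1.89, adjusted p = 0.717 by edgeR), and per 1000 CPM of neuron markers it stood at 6.73 to 36.1 in WT and 0.765 to 9.93 in HSCR proximal libraries. Slc18b1, a polyamine transporter, had changes of 0.23 and -0.23. Of the 7 genes of GABA and glutamate synthesis and breakdown, Gad1 alone had an unadjusted p under 0.05, in each segment, and the medians were -0.05 and -0.30. Glul, the glutamine synthetase, was the highest, with log2 fold changes of 0.51 (proximal) and 0.73 (distal).

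Plasma membrane transporters of amino acid transmitters had medians of -1.11 and -0.61 over 8 tested of 9 genes. None was past an unadjusted p of 0.05 in the proximal colon and 2 were lower in the distal colon, among them Slc1a3, a glial glutamate transporter (log2 fold change -1.65). Slc6a9, a glycine transporter, was the most abundant of the list and had changes of 0.40 and 0.09. Of the 8 tested of 9 other monoamine synthesis genes, Hdc, which makes histamine, had an unadjusted p of 0.0492 in the proximal colon (log2 fold change 2.98), and the medians were 0.30 and -0.35. Spr and Qdpr, which make and recycle the cofactor of the hydroxylases, were the highest of that list, with changes of 0.09 and 0.20 in the proximal and 0.09 and -0.51 in the distal colon. Among 8 genes of monoamine uptake and breakdown, Slc29a4 was lower in the proximal colon (-2.74, unadjusted p = 0.0166), and in the distal colon Maob was higher (1.00) and Slc6a2 lower (-5.47, unadjusted p = 0.0117), with medians of 0.04 and 0.46. Maoa, a monoamine oxidase and among the most abundant of these, had changes of 0.99 (proximal) and 0.65 (distal). All adjusted p-values of these genes were 0.705 or above by edgeR.

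Genes with the most similar pattern over the 16 libraries were looked up for the 5 genes with a mean of at least 0.5 CPM, by Pearson's correlation of log2 CPM with the other 18618 genes tested. For Slc17a6 they were Hoxa5 (r = 0.958), Npy5r (0.948) and Hoxb5 (0.928). Slc18a2 was most like Hap1 (0.982), Gpr37l1 (0.972) and Atcay (0.972), and Dbh most like Omg (0.969), Fibcd1 (0.964) and Tmem130 (0.964). Ddc had its closest genes in Smpdl3a (0.895), Map7 (0.881) and Mindy1 (0.879). Slc6a4 was closest to Atp8b4 (0.847), Mfsd4a (0.828) and Rnf149 (0.818). The libraries behind these values share series, segment and cell content, and the largest of many correlations is high by selection.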

How the data were processed

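RNA-seq of 16 colon muscle and myenteric plexus preparations was analysed from the deposited gene table. Per the labels, the authors used HISAT2 2.2.1 with build mm39 and featureCounts 2.0.6 to obtain reads per gene; the deposited counts are whole numbers without normalization, and the strand setting of the counting is not given in the sources used here. The authors also deposited gene lengths and positions, and FPKM values, which scale counts by gene length and a library size. That size was not the plain library total. Slc17a6 in WT proximal 1 and WT distal 2 held 0.0551 and 0.0527 FPKM, beside 0.187 and 0.314 CPM on plain totals and 0.301 and 0.288 TMM-scaled CPM. Columns of the authors' own comparisons, and a list of their changed genes, hold log2 fold changes and p-values and were not used. Libraries were grouped by title.

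Counts of all 16 libraries were fitted in one model with edgeR 4.0.16 (R 4.3.3; filterByExpr with a minimum count of 10, TMM, quasi-likelihood test), with 5 contrasts and Benjamini-Hochberg adjustment over 18619 genes. A call needed an adjusted p under 0.05 and a log2 fold change beyond 1. The SE given with an edgeR log2 fold change is its size divided by the square root of the F statistic, not a standard error from the fit. Single-library values are TMM-scaled CPM, and correlations used log2 CPM with a prior count of 0.5. Total counts per library were 21384372 to 45831881, and the spread between libraries (biological coefficient of variation 0.794) set the precision. The fit was tested on simulated data for HSCR against WT distal colon. With a dispersion like that of the real libraries, the quasi-likelihood test recovered 43.3% of true log2 fold changes of 3. It recovered 82.6% of those of 6, so a change of either size could go uncalled. DESeq2 recovered 64.9% and 91.3%, with 78 false calls against 1. At a dispersion of 0.05 both tests recovered 100% with 3 false calls. Alternatives were DESeq2 1.42.0, limma-voom 3.58.1, likelihood ratio tests with and without 4 RUVr factors, other scalings and filters, series or replicate terms, and left-out libraries. The fits on each library series alone and the ratios to neuron markers were added after seeing the data. The genes named were the 10 members and Ednrb, of each pathway list the 2 with the highest mean CPM and every gene called, and the 3 most correlated genes of each member, except that some genes of the pathway lists are not reported here; genes of the lists with an unadjusted p under 0.05, and Hoxd13, Npy, Tph1, Mcpt4, Fcer1a, Hand2 and Chat, were named after their values were seen. The members and lists were chosen with earlier results of these data known. Promoters came from RefSeq GRCm38.p6, whose coordinates were not mixed with mm39. For Python, versions were pandas 2.3.3, numpy 2.4.6 and matplotlib 3.10.9.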

Additional observations from a re-analysis of the deposited data

Results flagged for a closer look

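In 5 of 32 groups of 4 libraries that could be checked, 1 library lay apart from the other 3 by Dixon's criterion on log2 CPM. Chance meets this criterion in about 1 in 20 groups of continuous values. In 3 of the 5 the other libraries were all at 0, where a single count above 0 meets the criterion by construction and that rate does not apply. Slc18a2 in HSCR distal 1 stood at 32.8 CPM while the other 3 HSCR distal libraries held 3.06 to 3.61 CPM, and this library also goes against its segment label in Hoxd13. Slc17a6 in HSCR proximal 3 was at 0.220 CPM, Slc17a7 in WT distal 3 at 0.257 CPM and Tph2 in HSCR distal 2 at 0.595 CPM, in groups whose other libraries were at 0. Slc6a4 in WT distal 2 was at 0.0 CPM while the other WT distal libraries held 0.400 to 0.610 CPM.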

How the results depend on the processing

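No planned scaling or filter changed a call: with RLE or upper quartile factors, plain totals, totals without mitochondrial genes, no filter or a minimum count of 20, the quasi-likelihood test called 0 genes. Plain totals moved the median log2 fold change of all genes to 0.32 in the proximal genotype and 0.31 in the WT segment comparison. The counts of all genes called, in the order proximal genotype, distal genotype, WT segment, HSCR segment and difference, were 61, 33, 18, 0 and 6 with DESeq2, 1496, 553, 921, 211 and 324 with 4 RUVr factors, 0, 6, 0, 0 and 3 with the likelihood ratio test, and 0, 842, 0, 505 and 132 in replicates 3 and 4 alone. Separate fits called 3 in the WT segment comparison. Members called were 1, 1, 0, 0 and 0 with DESeq2, 3, 2, 1, 0 and 0 with RUVr factors, and 0, 3, 0, 2 and 0 in replicates 3 and 4. The cause was not tested. Leaving out each replicate in turn called 0 genes throughout.

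Of the log2 fold changes named, 825 values under the alternatives kept direction and side of the threshold, 13 passed the threshold that the 16-library values missed and 39 turned sign. Those outside the left-out replicates and the replicate block were these, as log2 fold changes. HSCR against WT, distal: Slc18a2 1.60 in replicates 1 and 2, Th -0.28 with RUVr factors and -2.42 in replicates 3 and 4. Distal against proximal in WT: Slc17a8 0.11 (RUVr factors) and 0.60 (replicates 3 and 4), Dbh 0.032 (plain totals), 0.32 (RUVr factors) and 0.32 (replicates 1 and 2), Ddc 0.16 (plain totals), Slc6a4 -0.079 (replicates 3 and 4). Distal against proximal in HSCR: Slc17a8 0.18, Th -4.28 and Ddc 0.77 (replicates 3 and 4), Slc18a2 0.42 (series as a term) and 2.33 (replicates 1 and 2), Th -0.12 (RUVr factors), -0.018 (limma-voom) and -0.41 (without the 2 doubtful libraries), Dbh 1.39 and Slc6a4 -1.07 (replicates 1 and 2), Slc6a4 -0.050 (limma-voom).

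With 1 library left out, the distal Slc6a4 change ran from -0.63 to 3.62. In the WT segment comparison the ranges were -5.31 to 0.27 for Slc17a8, -0.84 to 0.40 for Dbh, -0.27 to 0.18 for Ddc and -0.23 to 4.18 for Slc6a4. In the HSCR segment comparison they were -2.20 to 0.23 for Slc18a2, -0.13 to 2.30 for Th, -0.70 to 0.29 for Ddc and -2.05 to 2.49 for Slc6a4. The Slc17a6 genotype changes kept their sign, from -10.57 to -6.04 and from -9.27 to -8.18.

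Replicate numbers did not meet the criterion for pairs, a correlation over 0.1 for every number: same-number correlations were -0.117 to 0.251 (proximal genotype), -0.214 to 0.424 (distal genotype), 0.0959 to 0.417 (WT segments, where 3 of 4 libraries were closest to their own number) and 0.000138 to 0.358 (HSCR segments). With the replicate number as a block, 0 genes were called, Slc17a6 was at -7.53 and -8.53, and Dbh in the WT and Slc6a4 in the HSCR segment comparison turned to 0.12 and -0.29. Fits whose groups both held no count gave no value.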
